A study of Mus musculus with 22 samples.

Results

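The intermediate filament genes of neurons and glia were followed across 6 cell types of the mouse nervous system. The 9 genes were chosen by name, not by a threshold on their values, and make up 9 of the 55385 genes to which the sequenced transcripts belonged. They were the neurofilament triplet Nefl, Nefm and Nefh, the neuronal subunits Ina and Prph, and the glial or progenitor subunits Gfap, Vim and Nes together with Synm. In RiboTag mice, Cre recombinase switches on a haemagglutinin-tagged copy of the ribosomal protein Rpl22, so that ribosomes of the Cre-expressing cells, with their polyadenylated RNA, can be pulled out of homogenized tissue and sequenced. The mice were 6 weeks old and carried 1 floxed Rpl22 allele (Rpl22 Fl/+) in every group, so no group was free of the tag. Rbp4-Cre marked dentate gyrus granule cells in hippocampus and layer V neurons in cortex, Gabra6-Cre marked cerebellar granule cells in cerebellum, Dlx6a-Cre marked inhibitory interneurons in hippocampus, Aldh1-cre (Aldh1l1-cre/ERT2 in the study's methods) marked astrocytes in cortex and Tmem119-cre marked microglia in cortex. The astrocyte and microglia drivers were tamoxifen-inducible according to the study's methods. The dentate and layer V groups shared a driver and were separated by dissection alone, and each interneuron library pooled the hippocampi of 2 mice. Each cell type had 3 replicates, giving 18 libraries. A further 4 libraries were repeat sequencing of 4 of these replicates in a second batch, which left 22 libraries in all.

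Intermediate filaments are rope-like polymers of coiled-coil proteins that give a cell mechanical strength. Mature neurons of the brain assemble them from the neurofilament light, medium and heavy chains together with alpha-internexin, and neurofilament content is known to scale with axon calibre. Astrocytes build theirs mainly from glial fibrillary acidic protein and vimentin, while nestin is a classical subunit of neural progenitors and is also made by endothelial cells of vessels.

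The genes lie on 7 chromosomes (GRCm38, GENCODE M21). Nefl (ENSMUSG00000022055.7, chr14:68083863-68089095, plus strand) lies within the span of Nefm (ENSMUSG00000022054.11, chr14:68082590-68124846, minus strand). Nefh (ENSMUSG00000020396.8) is at chr11:4938754-4948064 and Gfap (ENSMUSG00000020932.14) at chr11:102887336-102900912, both on the minus strand. Ina (ENSMUSG00000034336.3) is at chr19:47014698-47025327 and Prph (ENSMUSG00000023484.14) at chr15:99055174-99058978, both on the plus strand. Vim (ENSMUSG00000026728.9) is at chr2:13573927-13582826 and Nes (ENSMUSG00000004891.16) at chr3:87971078-87980451, both on the plus strand. Synm (ENSMUSG00000030554.16) is at chr7:67730160-67759742 on the minus strand. A minor transcript, Nefm-202, overlaps exons of Nefl on the opposite strand by 1108 bases, and Ina shares 456 exon bases with the opposite-strand gene Nt5c2. Synm shares 84 such bases with Ttc23 and 426 with Gm45102. The library kit kept strand but the strand setting of the quantification is not given in the sources used here, so reads in these overlaps are uncertain. The main transcript Nefm-201 does not overlap Nefl.

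Of the 9 genes, Gfap had the largest difference towards glia and Ina the largest towards neurons. The 250 bases before their RefSeq start sites (GRCm38.p6) are shown with each GGGCGG motif, or CCGCCC on the other strand, in capitals.
Gfap (chr11:102897201-102897450, minus strand): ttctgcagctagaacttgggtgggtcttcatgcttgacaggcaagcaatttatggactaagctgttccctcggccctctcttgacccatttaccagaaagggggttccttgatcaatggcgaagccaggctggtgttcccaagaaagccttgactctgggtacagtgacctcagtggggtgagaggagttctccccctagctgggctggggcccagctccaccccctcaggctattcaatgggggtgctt
Ina (chr19:47014431-47014680, plus strand): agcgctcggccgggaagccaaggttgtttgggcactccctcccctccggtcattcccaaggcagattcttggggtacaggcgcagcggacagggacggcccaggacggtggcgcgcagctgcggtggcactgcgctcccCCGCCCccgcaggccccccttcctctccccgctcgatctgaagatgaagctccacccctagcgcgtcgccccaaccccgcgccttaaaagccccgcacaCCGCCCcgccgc
The Ina window held 2 such motifs and the Gfap window none, where 32.7% of 32851 windows of this length held at least 1. Neither window held TATAAA or CCAAT on either strand, which 12.4% and 33.8% of windows held. These letters are a description of the windows and bear on no factor. The windows of 6 of the 9 genes were given, without Nefl, Nefm and Nefh.

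Depth and identity were checked before the genes were read. The 18 libraries held 38270477 to 71440915 estimated counts, and all 9 genes passed the filter on low counts that left 20524 genes. Of 30 marker genes of the 6 cell types, 28 were higher in every library of their own type than in any other library, the exceptions being Bcl11b and Etv1 for layer V neurons. Markers of other cells were present in every group, and their sums are given beside the results below. Layer V replicate 1 is labelled female in its first library and male in its repeat, and both held Xist (2.45 and 2.13 TPM) with almost no Ddx3y (0.0859 and 0.034 TPM), so the label of the repeat goes against its data. That repeat entered only alternative analyses. Levels are given in TPM (transcript numbers scaled to 1 fixed total in each library), which take transcript length into account and so can be set against each other between genes. Differences are log2 fold changes of counts scaled by the trimmed mean of M values (TMM), fitted with edgeR's quasi-likelihood test and adjusted by the Benjamini-Hochberg method over the genes tested. The 2 scales do not fully coincide: interneurons stood about as high as layer V neurons in Ina TPM but below them on the TMM scale. In libraries of this kind a low level can come from fewer cells of a type or from less RNA per cell, and these cannot be told apart.

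**Figure D1:**
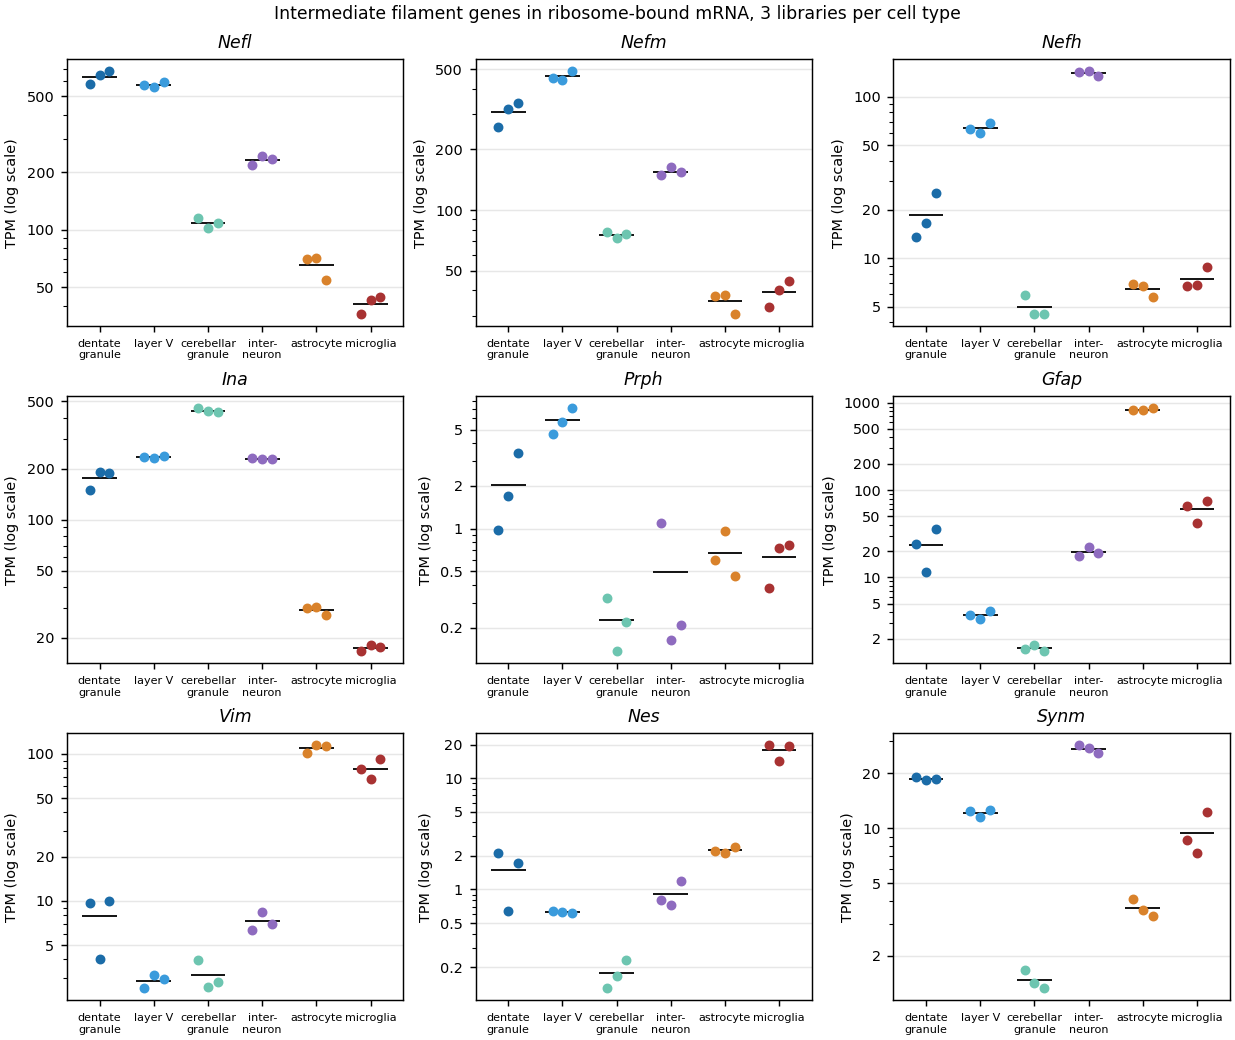
Level of each of the 9 intermediate filament genes in the 6 cell types. The vertical axis of each panel is TPM on a log scale, each point is 1 library (3 per cell type) and the line is their mean. Nefl, Nefm and Ina sit higher in all 12 neuronal libraries than in any glial library, Gfap peaks in astrocytes at 820.0 to 862 TPM, and Nes peaks in microglia libraries at 14.3 to 19.7 TPM.

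The neurofilament triplet was highest in forebrain neurons, but each chain had its own order of cell types. Nefl, the light chain that forms the filament core, was highest in dentate granule cells and layer V neurons at 634 ± 51.1 and 576 ± 16.6 TPM (SD, n = 3). Nefm, the medium chain, was highest in layer V neurons at 460 ± 25.1 TPM. Nefh, the heavy chain with the long phosphorylated tail, was highest in interneurons at 141 ± 4.56 TPM and close to glial levels in cerebellar granule cells at 4.97 ± 0.810 TPM.

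Nefl read 578, 646 and 678 TPM in dentate granule cells, 572, 562 and 595 TPM in layer V neurons, 218, 243 and 234 TPM in interneurons and 116, 102 and 108 TPM in cerebellar granule cells. In the glial libraries it read 70.3, 71.1 and 54.2 TPM in astrocytes and 36.1, 42.7 and 44.1 TPM in microglia. Dentate and layer V libraries overlapped, while every other step of this order separated the groups completely. The step between dentate granule cells and layer V neurons was not called (log2 difference -0.08 ± 0.07, SE, edgeR adjusted p = 0.319), and its sign was opposite to that of the TPM means. From layer V neurons to interneurons Nefl differed by 1.62 on the log2 scale (edgeR adjusted p = 1.95e-12), and from cerebellar granule cells to astrocytes by only 0.48 ± 0.07 (edgeR adjusted p = 5.18e-06).

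Nefm read 452, 439 and 488 TPM in layer V neurons, 259, 317 and 339 TPM in dentate granule cells, 148, 163 and 154 TPM in interneurons and 78.0, 72.7 and 75.9 TPM in cerebellar granule cells. In glia it read 33.0, 40.02 and 44.8 TPM in microglia and 37.5, 37.9 and 30.6 TPM in astrocytes. The 4 neuronal types did not overlap one another, whereas the glial types did. Layer V neurons exceeded dentate granule cells by 0.80 ± 0.08 (edgeR adjusted p = 1.31e-07), and microglia and astrocytes differed by 0.06 ± 0.08 (edgeR adjusted p = 0.509).

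Nefh read 143, 144 and 136 TPM in interneurons, 63.0, 59.9 and 69.1 TPM in layer V neurons, 13.5, 16.6 and 25.4 TPM in dentate granule cells and 5.91, 4.50 and 4.50 TPM in cerebellar granule cells. Astrocytes held 6.88, 6.73 and 5.76 TPM and microglia 6.72, 6.81 and 8.86 TPM. Interneurons stood above every other library and dentate replicate 3 stood above the other dentate libraries. Cerebellar granule cells were the lowest group, overlapping with astrocytes in 1 library. Interneurons exceeded layer V neurons by 0.87 ± 0.15 (edgeR adjusted p = 5.87e-05), layer V neurons exceeded dentate granule cells by 2.00 ± 0.15 (edgeR adjusted p = 3.11e-09), and astrocytes exceeded cerebellar granule cells by 0.66 ± 0.16 (edgeR adjusted p = 0.00127). That last difference was not called by limma on log2(TPM + 1), where it was 0.33 (adjusted p = 0.0823).

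Ina, which encodes alpha-internexin, the subunit that joins the triplet in neurons of the central nervous system, was highest where the triplet was lowest, in cerebellar granule cells. It read 455, 438 and 430.2 TPM in cerebellar granule cells. Layer V neurons held 234, 232 and 239 TPM, and Ina read 231, 227 and 228 TPM in interneurons and 149, 191 and 189 TPM in dentate granule cells. In astrocytes it read 29.9, 30.6 and 27.3 TPM and in microglia 16.7, 18.2 and 17.6 TPM. Cerebellar granule cells, the lowest neurons for Nefl, Nefm and Nefh, stood above all other libraries for Ina, and no neuronal library overlapped a glial one. Cerebellar granule cells exceeded layer V neurons by 0.76 ± 0.06 (edgeR adjusted p = 1.23e-09). Ina was the gene for which all 15 pairs of cell types were called. The small step from layer V neurons to interneurons (0.32 ± 0.06, edgeR adjusted p = 0.000115) depended on the scale, and was 0.039 by limma on log2(TPM + 1) (adjusted p = 0.681).

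Prph, which encodes peripherin, a subunit best known from neurons with axons in the peripheral nervous system, was the lowest of the neuronal genes. It read 4.65, 5.67 and 7.06 TPM in layer V neurons, on 232 to 357 estimated counts, and 0.974, 1.70 and 3.40 TPM in dentate granule cells, on 44 to 122 counts. The other groups lay below most of these values, at 0.595, 0.967 and 0.463 TPM in astrocytes, 0.383, 0.735 and 0.770 TPM in microglia, 1.10, 0.164 and 0.209 TPM in interneurons and 0.322, 0.136 and 0.218 TPM in cerebellar granule cells. Layer V neurons stood above every other library. Dentate granule cells spread widely, and their lowest library fell below interneuron replicate 1. Layer V neurons exceeded dentate granule cells by 1.77 ± 0.32 (edgeR adjusted p = 0.00012), a difference that was 0.75 with an adjusted p of 0.273 in batch 2 libraries alone. Microglia and interneurons, and interneurons and cerebellar granule cells, were not called apart (edgeR adjusted p = 0.21 and 0.359), the latter on only 5 to 18 counts a library.

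The proportions in which the neuronal subunits occurred differed between neuronal types. In dentate granule cells Nefl made up 55.9 ± 1.60% of the summed TPM of Nefl, Nefm, Nefh, Ina and Prph, Nefm 26.8 ± 0.839%, Ina 15.5 ± 0.710% and Nefh 1.61 ± 0.391% (SD, n = 3 libraries here and below). In layer V neurons Nefl made up 43.0 ± 0.387%, Nefm 34.3 ± 0.560%, Ina 17.5 ± 0.390% and Nefh 4.77 ± 0.166%. In interneurons Nefl and Ina were nearly level, at 30.6 ± 1.02% and 30.3 ± 1.01%, and Nefm and Nefh followed at 20.5 ± 0.496% and 18.6 ± 0.598%. In cerebellar granule cells Ina alone made up 69.9 ± 0.829%, with Nefl at 17.2 ± 0.586%, Nefm at 12.0 ± 0.257% and Nefh at 0.787 ± 0.0981%.

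The ratio of Nefm to Nefl ranged from 0.479 in dentate granule cells through 0.671 in interneurons and 0.695 in cerebellar granule cells to 0.797 in layer V neurons (exact permutation test of the F statistic over 4 groups of 3, p = 0.00013). The ratio of Nefh to Nefl was lowest in granule cells, at 0.0282 in the dentate gyrus and 0.0454 in the cerebellum, and was 0.111 in layer V neurons and 0.609 in interneurons (exact permutation p = 6.5e-05). The ratio of Ina to Nefl was highest in cerebellar granule cells at 4.06, followed by interneurons at 0.991, layer V neurons at 0.408 and dentate granule cells at 0.277 (exact permutation p = 6.5e-05). Adjusted over these 3 ratios the values were 0.00013, 9.7e-05 and 9.7e-05. The smallest p that the 15400 partitions allow is 6.5e-05. The summed TPM of the 5 neuronal genes averaged 1342 ± 50.6 in layer V neurons, 1136 ± 121.6 in dentate granule cells, 757 ± 18.6 in interneurons and 631 ± 20.9 in cerebellar granule cells, so layer V neurons were highest in total and cerebellar granule cells lowest among neurons. In astrocytes the sum was 118 to 147 TPM and in microglia 92.9 to 116 TPM.

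**Figure D2:**
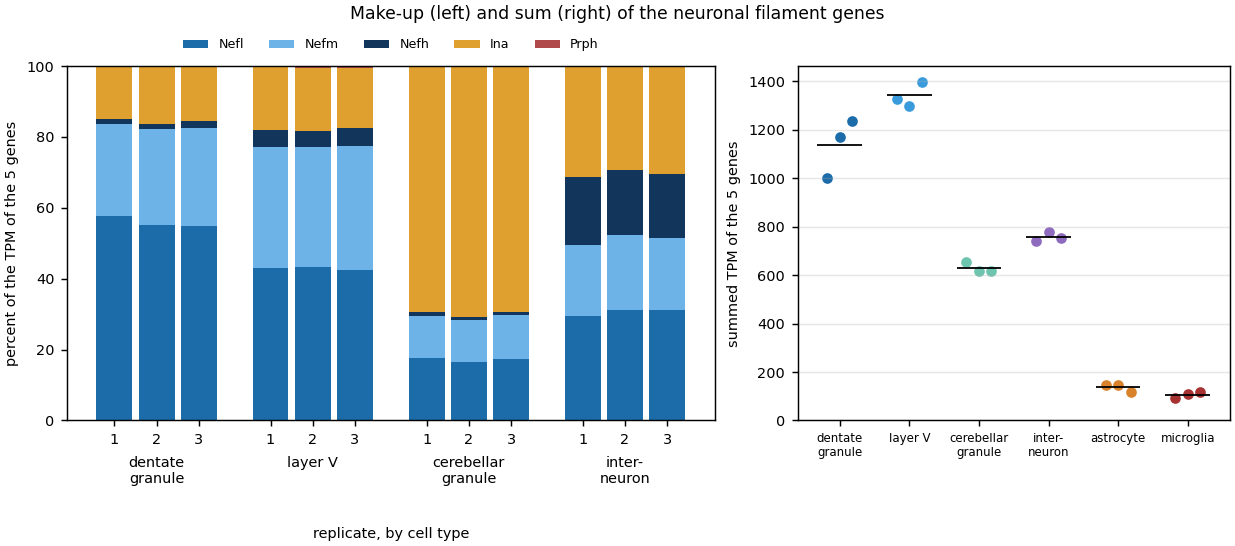
Left, percent of the summed TPM of Nefl, Nefm, Nefh, Ina and Prph taken by each gene, with 1 stacked bar for each of the 12 neuronal libraries. Right, the summed TPM of these 5 genes in each library of the 6 cell types. Ina takes most of the bar in cerebellar granule cells, and Nefh is a broad band in interneurons alone.

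Gfap, the defining intermediate filament of astrocytes, was highest in astrocytes at 834 ± 24.02 TPM. It read 820.0, 820.5 and 862 TPM in astrocytes, 65.9, 42.2 and 75.1 TPM in microglia, 23.9, 11.7 and 35.4 TPM in dentate granule cells and 17.5, 22.3 and 19.1 TPM in interneurons. The lowest values were 3.74, 3.35 and 4.13 TPM in layer V neurons and 1.53, 1.69 and 1.44 TPM in cerebellar granule cells. Astrocytes stood far above all other libraries, microglia above all neurons, and the hippocampal groups overlapped each other. Astrocytes exceeded microglia by 3.84 ± 0.27 (edgeR adjusted p = 4.04e-10). Dentate granule cells and interneurons were not called apart (0.35 ± 0.26, edgeR adjusted p = 0.254), a call that turned on dentate replicate 2: without it the difference was 0.64 (adjusted p = 0.00382), and without dentate replicate 3 it was -0.024 (adjusted p = 0.948).

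Gfap is annotated with a pair of coding transcripts that differ at their 3′ ends, and Gfap-201 was the main one in all cell types. Gfap-201 has 9 exons and 430 codons and encodes GFAP alpha, while Gfap-202 has 8 exons and 428 codons and encodes GFAP delta. They share the coding parts of 7 exons and then part, Gfap-202 ending in the exon at chr11:102890166-102891520. The coding bases at the end of Gfap-202, on the minus strand, are shown with the stop codon in capitals, since they set it apart from the main transcript.
Gfap-202: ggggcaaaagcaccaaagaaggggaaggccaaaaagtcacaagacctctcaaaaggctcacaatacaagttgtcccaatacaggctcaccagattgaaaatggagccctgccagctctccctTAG
Gfap-202, with this end, made up 6.03, 6.47 and 6.27% of the Gfap TPM in astrocytes on 4110 to 5519 estimated counts, and 6.29, 7.75 and 6.17% in microglia. It made up 7.71, 6.35 and 8.86% in dentate granule cells and 6.02, 7.73 and 8.70% in interneurons. In layer V neurons it made up 3.45, 4.12 and 6.43% on 9.5 to 19.2 counts, and in cerebellar granule cells 5.29, 20.8 and 1.67% on 1.4 to 18.8 counts, too few to set their order. Gfap-201 made up 93.5% in astrocytes against a mean of 92.4% and a median of 93.6% in the other 15 libraries (difference of means 1.05 points, two-sided exact permutation p = 0.63, where the 816 splits allow no p below 0.0012). Without cerebellar granule cell replicate 2 the difference was 0.099 points. The noncoding Gfap-203 held at most 2.23% in any library.

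Vim, which encodes vimentin, the partner of GFAP in astrocytes and a filament of many non-neuronal cells, was higher in both glial groups than in neurons. It read 102, 114 and 112 TPM in astrocytes, 78.7, 67.5 and 92.3 TPM in microglia, 9.74, 4.04 and 10.03 TPM in dentate granule cells and 6.31, 8.42 and 7.01 TPM in interneurons. Cerebellar granule cells held 3.95, 2.60 and 2.80 TPM and layer V neurons 2.55, 3.12 and 2.93 TPM. Every glial library stood above every neuronal one, and astrocytes stood above microglia without overlap. That last difference was 0.65 ± 0.19 (edgeR adjusted p = 0.00532), and 0.47 by limma on log2(TPM + 1) (adjusted p = 0.0749). Part of the Vim level came from Vim-203, a short transcript annotated with a retained intron, which took 19.1 to 45.0% of the Vim TPM as a mean per cell type. In the microglia libraries 4 fibroblast markers summed to 286, 143 and 632 TPM, in the same order of libraries as Vim, against 22.7 to 31.8 TPM in astrocytes, and endothelial and mural markers were likewise highest there, as given with Nes. Their part in the Vim level was not tested.

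Nes, which encodes nestin, was highest in the microglia libraries. It read 19.7, 14.3 and 19.4 TPM there, 2.23, 2.13 and 2.40 TPM in astrocytes, 2.12, 0.636 and 1.72 TPM in dentate granule cells and 0.799, 0.730 and 1.19 TPM in interneurons. Layer V neurons held 0.641, 0.622 and 0.613 TPM and cerebellar granule cells 0.130, 0.167 and 0.234 TPM. The microglia libraries stood well above all others, and astrocytes were barely above the highest dentate library. Microglia exceeded astrocytes by 2.92 ± 0.27 (edgeR adjusted p = 1.68e-08). The summed TPM of 6 endothelial markers was 248.8, 166.6 and 195.5 in the same microglia libraries, against 29.6 to 39.4 in astrocytes and at most 23.9 in any neuronal library, and 5 mural cell markers summed to 235 to 317 TPM in microglia against 102 to 112 TPM in astrocytes. Their part in the Nes level was not tested.

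Synm, which encodes synemin, a large subunit that copolymerizes with other filaments and links them to membrane complexes, was the only gene of the glial set that was higher in neurons. It read 28.5, 27.7 and 25.8 TPM in interneurons, 19.1, 18.3 and 18.7 TPM in dentate granule cells and 12.4, 11.6 and 12.6 TPM in layer V neurons. Microglia held 8.58, 7.34 and 12.2 TPM, astrocytes 4.11, 3.54 and 3.30 TPM and cerebellar granule cells 1.66, 1.41 and 1.32 TPM. Each group stood apart from its neighbours except that microglia replicate 3 reached into the layer V range. Cerebellar granule cells were below both glial types, so the neuronal types lay on both sides of the glia. Interneurons exceeded dentate granule cells by 0.46 ± 0.12 (edgeR adjusted p = 0.00261), and layer V neurons and microglia were not called apart (0.24, edgeR adjusted p = 0.0691), although without microglia replicate 3 they were (0.53, adjusted p = 4.6e-05).

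A short Synm transcript was seen chiefly in layer V neurons. Synm-201 (1259 codons) and Synm-202 (1561 codons) made up most of the Synm TPM everywhere, while Synm-204 (371 codons) made up 16.9, 14.9 and 22.8% in layer V neurons on 260 to 347 estimated counts. It stood at 0 in 12 of the other 15 libraries and reached 7.23% in cerebellar granule cell replicate 2, on 9.1 counts. This transcript was picked out after its values were seen and was not tested. Synm-204 joins early exons to a last coding stretch at chr7:67733447-67733553 on the minus strand. The bases of this stretch are also coding in Synm-201 and Synm-202, whose coding parts run on to chr7:67733230. What sets Synm-204 apart is the join of the exon at chr7:67739105-67739175 to the exon at chr7:67730168-67733553. Reads across this join were not counted here. The coding end of Synm-204 is shown with the stop codon in capitals.
Synm-204: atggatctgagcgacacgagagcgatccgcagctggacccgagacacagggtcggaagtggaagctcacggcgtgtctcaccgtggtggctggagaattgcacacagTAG

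**Figure D3:**
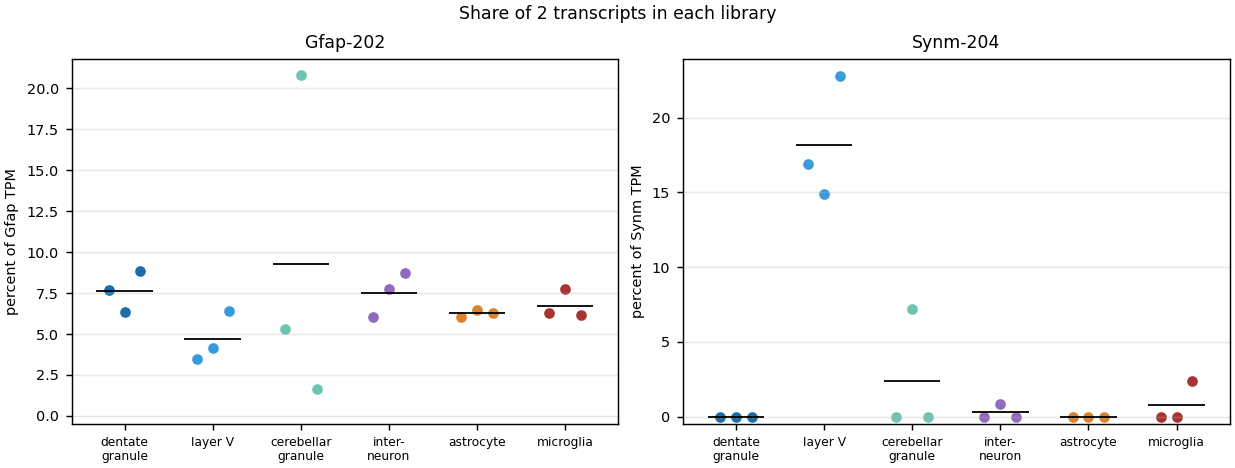
Percent of the Gfap TPM assigned to Gfap-202 (left) and of the Synm TPM assigned to Synm-204 (right) in each library, with 3 points per cell type and a line at their mean. Gfap-202 lies between 6.02 and 8.86% outside layer V neurons and cerebellar granule cells and scatters from 1.67 to 20.8% in the latter, and Synm-204 lies at 14.9 to 22.8% in layer V neurons and at most 7.23% elsewhere.

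Set together, the 4 neuronal types were compared with the glial types. Ina was 9.60-fold higher in neurons, Nefl 5.17-fold, Nefm 4.64-fold and Nefh 3.68-fold, whereas Gfap was 36.9-fold, Vim 22.6-fold and Nes 12.1-fold higher in glia. On the log2 scale the neuronal genes differed by 3.26 ± 0.04 for Ina (edgeR adjusted p = 9.24e-21), 2.37 ± 0.05 for Nefl (adjusted p = 2.78e-18), 2.21 ± 0.06 for Nefm (adjusted p = 6.52e-17) and 1.88 ± 0.10 for Nefh (adjusted p = 5.34e-12). Gfap differed by -5.21 ± 0.16 (edgeR adjusted p = 1.09e-15), Vim by -4.50 ± 0.13 (adjusted p = 2.49e-16) and Nes by -3.59 ± 0.17 (adjusted p = 7.09e-13). Synm was higher by 0.47 ± 0.08 (edgeR adjusted p = 2.04e-05). Prph was higher by 0.62 ± 0.26 (edgeR adjusted p = 0.0338), a call lost under several alternatives, among them transcript length as an offset (0.46, adjusted p = 0.251) and the removal of interneuron replicate 1 (0.49, adjusted p = 0.0859). Every neuronal library stood above every glial one for 3 genes (Nefl, Nefm and Ina) and below for 3 (Gfap, Vim and Nes), where 11.3% and 12.7% of all genes tested did so. In all, 6 genes were called higher in neurons and 3 in glia, where 36.4% of all genes tested were called higher and 46.8% lower. Their median difference was 0.62, beside -0.18 for all genes tested. Within batch 1, which held dentate, layer V and cerebellar neurons and astrocytes, the differences were 2.13 for Nefl, 2.35 for Nefm, 1.18 for Nefh, 2.90 for Ina, -7.62 for Gfap, -5.10 for Vim, -2.35 for Nes, 0.60 for Synm and 0.68 for Prph (adjusted p = 0.0538 for Prph, not called). Within batch 2, which held all 6 types but only 1 library each of dentate, layer V, cerebellar and astrocyte samples, they were 2.44, 2.30, 2.04, 3.35, -4.88, -4.40, -3.32, 0.58 and 1.36 in the same order.

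Astrocytes were then set against the other 5 types. Gfap was 88.5-fold higher in astrocytes (6.47 ± 0.16, edgeR adjusted p = 1.05e-16), Vim 15.8-fold (3.99 ± 0.13, adjusted p = 4.92e-15) and Nes 2.18-fold (1.12 ± 0.21, adjusted p = 8.91e-05). The Nes difference was 0.23 by limma on log2(TPM + 1) (adjusted p = 0.145), microglia being far above astrocytes and neurons below. Ina was lower by -2.13 ± 0.05, Nefm by -1.81 ± 0.07, Nefh by -1.58 ± 0.13, Nefl by -1.45 ± 0.06 and Synm by -1.15 ± 0.10, all called, with edgeR adjusted p from 1.06e-16 for Ina to 1.3e-08 for Synm. Prph was not called (0.06 ± 0.27, edgeR adjusted p = 0.85). In all, 3 genes were called higher and 5 lower in astrocytes, where 40.2% of all genes tested were called higher and 33% lower. Gfap differed by 7.62 within batch 1 and 6.17 within batch 2, and Nes by 2.35 and 0.84.

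Layer V neurons, whose long axons leave the cortex, were compared with the other 3 neuronal types. Prph was 14.5-fold higher in layer V neurons (3.86 ± 0.26, edgeR adjusted p = 4.22e-10), Nefm 3.53-fold (1.82 ± 0.06, adjusted p = 3.66e-14), Nefh 3.16-fold (1.66 ± 0.11, adjusted p = 4.55e-10), Nefl 2.70-fold (1.43 ± 0.05, adjusted p = 1.28e-13) and Synm 1.47-fold (0.56 ± 0.10, adjusted p = 6.65e-05). These are differences from a mean over the log2 levels of unlike types. Nefh was higher still in interneurons, Synm in interneurons and dentate granule cells, and Nefl was level with dentate granule cells. The Prph fold was 3.40 against dentate granule cells. It was 24.7 against interneurons and 36.6 against cerebellar granule cells, where Prph had 5 to 18 counts a library. Ina was not called (0.07 ± 0.05, edgeR adjusted p = 0.232), and was lower in layer V neurons by limma on log2(TPM + 1) (-0.15, adjusted p = 0.0387). Gfap was lower by -1.03 ± 0.26 (edgeR adjusted p = 0.00163) and Vim by -1.17 ± 0.22 (adjusted p = 0.00014), while Nes was not called (0.27 ± 0.28, edgeR adjusted p = 0.406). In all, 5 genes were called higher and 2 lower in layer V neurons, where 35.9% of all genes tested were called higher and 31.7% lower. Within batch 1 the Prph difference was 3.48 and the Nefh difference 2.92, and within batch 2 they were 2.97 and 1.57. The Gfap difference was -0.50 in batch 1 (adjusted p = 0.101), which held no interneurons, and -1.21 in batch 2.

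**Figure D4:**
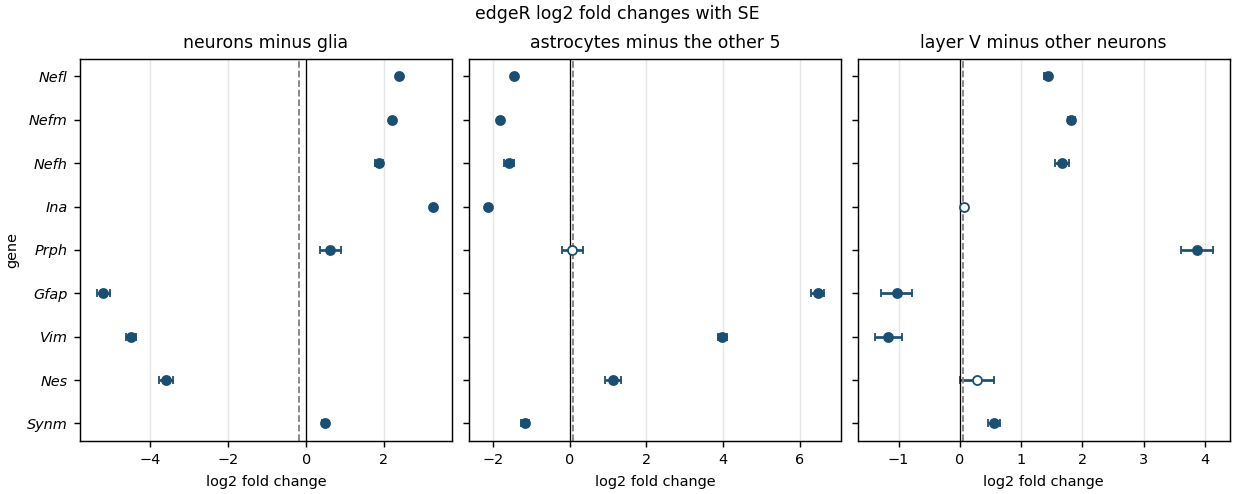
Log2 fold change of each of the 9 genes with its standard error in neurons against glia, astrocytes against the other 5 types and layer V neurons against the other 3 neuronal types. Filled points have an edgeR adjusted p of at most 0.05, open points do not, and the dashed line is the median of all genes tested. Gfap and Vim lie far on the glial side of the first comparison, and Prph leads the third.

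Over the 15 pairs of cell types, 125 of the 135 combinations of gene and pair were called, where 75.1% of all combinations of gene and pair were called. Each of the 9 genes was called in 13 to 15 of its 15 pairs.

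Low levels of glial filament genes in neurons, and of neuronal ones in glia, were set beside markers of the other cells. Neuronal libraries held 8 astrocyte markers at low levels, with a median over the markers of 1.0% of their astrocyte mean in interneurons, 0.922% in dentate granule cells, 0.682% in layer V neurons and 0.357% in cerebellar granule cells. Gfap stood at 2.35, 2.84, 0.448 and 0.186% of its astrocyte mean in the same types. In dentate granule cells the markers ranged from 0.499 to 1.71% and in interneurons from 0.551 to 1.32%, so the mean of Gfap was above those of all 8 markers in both hippocampal groups. In layer V neurons and cerebellar granule cells it was within or below their range. The astrocyte reference was cortical, and whether hippocampal astrocytes hold other proportions was not measured. In the microglia libraries Gfap stood at 7.32% of its astrocyte mean, where the 8 markers had a median of 2.44% and ranged from 1.40 to 9.57%, Gjb6 alone lying above Gfap, whereas Vim stood at 72.5%. In neurons Vim stood at 2.62 to 7.24% of its astrocyte mean, above Gfap in each type. Dentate replicate 2, the lowest dentate library for Gfap, Vim and Nes, was also the lowest for the summed astrocyte, endothelial and mural markers, at 75.9, 11.8 and 10.4 TPM against 92.8 to 115, 17.0 to 23.9 and 14.2 to 19.5 TPM in the other two. It was the highest for the sum of 4 fibroblast markers, at 169.6 TPM against 112.2 and 116.0. That sum was nearly all Dcn (104.9 to 164.5 TPM over the dentate libraries), with Lum at 4.69 to 5.62 TPM and Col1a1 and Col1a2 under 1 TPM. For oligodendrocyte markers dentate replicate 2 lay between the others, at 304.4 TPM against 279.4 and 399.7. The part of such RNA in the levels of Gfap, Vim and Nes was not tested.

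In astrocytes, 4 pan-neuronal markers stood at 10.1 to 16.7% of their neuronal mean, and in microglia at 3.85 to 11.4%. Ina stood at 10.8% of its neuronal mean in astrocytes and 6.48% in microglia, within these ranges. In astrocytes Nefm (14.2%) and Nefh (11.3%) were within the range of the markers and Nefl (16.8%) just above it. In microglia Nefl (10.6%) was within it, and Nefm (15.8%) and Nefh (13.1%) were above it. Prph stood at 31.6% and 29.5%, on 11 to 50 counts a library. The glial libraries were from cortex, whereas this neuronal mean also took in hippocampal and cerebellar neurons. Layer V neurons, the only cortical neurons here, stood above that mean in Nefl, Nefm, Nefh and Prph TPM. They stood below it in Ina and all 4 markers. With layer V neurons alone as reference, Nefl, Nefm, Nefh and Prph would therefore lie lower against the markers. The part of neuronal RNA in the glial levels of these genes was not tested. Oligodendrocyte markers, 5 in number, summed to 2612 to 2795 TPM in interneurons, above the 768 to 982 TPM of astrocytes and the 102 to 536 TPM of the remaining groups.

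**Figure D5:**
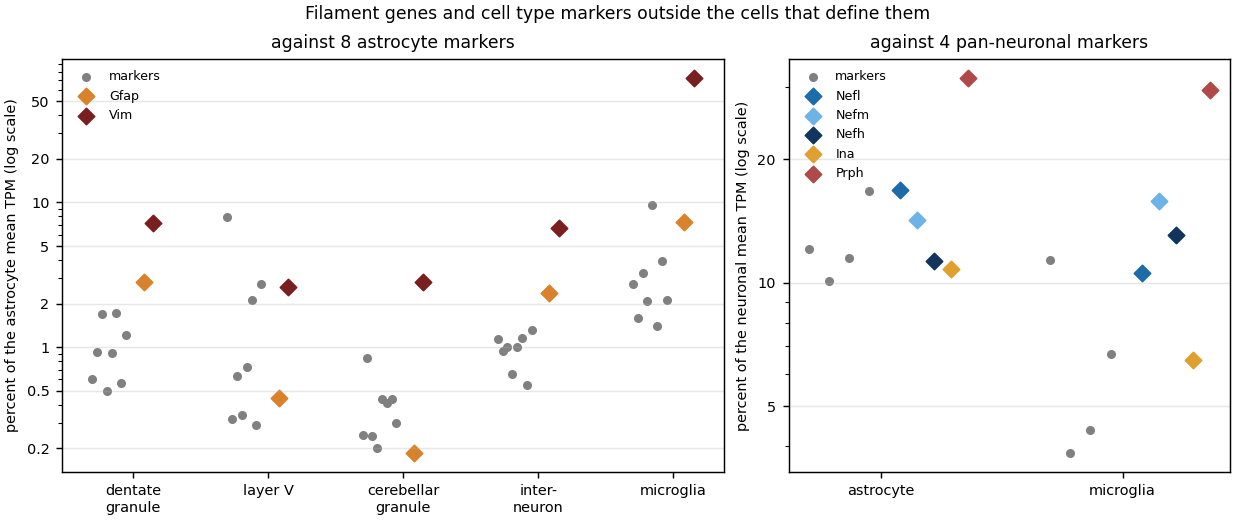
Left, Gfap, Vim and 8 astrocyte markers in each non-astrocyte type as percent of their mean in astrocytes. Right, the 5 neuronal filament genes and 4 pan-neuronal markers in astrocytes and microglia as percent of their mean over the neuronal types. Both vertical axes are logarithmic. Vim in microglia, at 72.5%, is far from the markers, and on this neuronal reference Prph lies above them in both glial types.

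Genes that act on intermediate filaments were described as a list of 26 partners, covering linkers, small heat shock and other chaperones, turnover factors, kinases of neurofilament tails, motors, a citrullinating enzyme and regulators of Gfap. All 26 were tested. In neurons against glia 9 were called higher, 14 lower and 3 not called, with a median of -0.38 beside -0.18 for all genes. Over all genes tested 36.4% were called higher and 46.8% lower, shares close to those of the list. Padi2, a peptidylarginine deiminase, was lower in neurons by -5.39 (edgeR adjusted p = 2.56e-20), Sox9, an astrocyte transcription factor, by -3.99 (adjusted p = 7.53e-18), and the small heat shock proteins Hspb1 and Hspb8 by -3.90 (adjusted p = 9.18e-15) and -3.14 (adjusted p = 1.19e-17). The glial types were unlike each other here. Hspb8 read 83.5 TPM in astrocytes but 8.96 TPM in microglia, beside 24.05 TPM in cerebellar granule cells and 9.18 TPM in interneurons. Sox9 read 167 TPM in astrocytes and 3.56 TPM in microglia, beside 4.55 TPM in layer V neurons. Hspb1 read 41.4 TPM in microglia and 5.33 TPM in astrocytes. Of 5 chaperones only Dnajb6, which keeps client proteins from aggregating, was higher in neurons (1.00). Of 5 kinase genes 4 were higher, led by the Cdk5 activator Cdk5r1 (1.86), and Mapk3 was lower (-0.43). The calpain Capn2 was lower (-1.17) while the calpain Capn1 was higher (0.89). Among the motors, which carry neurofilaments along axons, Kif5c and Myo5a were higher (2.38 and 1.81), Kif5b was lower (-0.32), and Kif5a and Dync1h1 were not called.

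In astrocytes against the other 5 types, 12 of the 26 partners were called higher, 13 lower and 1 not, with a median of -0.09 beside 0.08 for all genes, of which 40.2% were called higher and 33% lower. Sox9 was higher by 6.57 (edgeR adjusted p = 6.53e-21), Padi2 by 5.13 (adjusted p = 5.25e-20), Hspb8 by 4.50 (adjusted p = 1.22e-19) and Cryab, the alpha B-crystallin chaperone of GFAP, by 2.87 (adjusted p = 4.69e-15). The 3 regulators of Gfap were all higher than the mean of the other types, Nfia by 1.85 and Stat3 by 0.73, and the 5 kinase genes were all lower. Of the regulators only Sox9 was highest in astrocytes. Nfia was highest in cerebellar granule cells (89.6 TPM against 49.6 TPM in astrocytes) and Stat3 in microglia (68.6 against 37.9 TPM). Of the 5 chaperones Dnajb6 alone was lower. Cryab reached 242 ± 21.8 TPM in astrocytes and also 177 ± 8.75 TPM in interneurons, the libraries with the highest oligodendrocyte markers, and the part of that RNA in it was not tested. In layer V neurons against other neurons 7 of the 26 partners were called higher, 13 lower and 6 not, with a median of -0.16 beside 0.04 for all genes, of which 35.9% were called higher and 31.7% lower. Hspb8 was lower there by -3.05 (edgeR adjusted p = 2.75e-12), Nfia by -2.12 (adjusted p = 2.99e-15) and Dync1h1, the dynein heavy chain, by -1.18 (adjusted p = 3.27e-06), and Sox9 was higher by 2.02 (adjusted p = 7.77e-11). Of the 8 astrocyte markers, Sox9 included, 5 were called higher in layer V neurons (Aldh1l1 by 3.72, Slc1a2 by 1.46, Gjb6 by 0.39 and Fgfr3 by 0.33 beside Sox9), Aqp4 (-1.20) and Slc1a3 (-0.60) lower, and Gja1 was not called. Their sum was 118 to 121 TPM there, the highest of the neuronal groups, and its part in the Sox9 level was not tested.

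The genes with the most similar pattern to each filament gene were found by Pearson correlation of log2 library-scaled counts (CPM) over the 18 libraries, which fall into 6 cell types. They are a description without a test, since libraries of 1 type share their source. Nefl was most like Kctd13 (r = 0.9955), Dmtn (0.9954) and Fkbp1a (0.9923), and Ina was most like Eef1a2 (0.9993), Eno2 (0.9956) and Ccdc92 (0.9949). Nefm was most like Atg4c (0.9827), Nefh most like Fam186b (0.9717) and Prph most like Wnt9a (0.9647). Gfap was most like Gdpd2 (0.9909), Myoc (0.9867) and Kank1 (0.9865), and Vim most like Gsap (0.996), Lamb2 (0.9899) and H2-Aa (0.988). The genes nearest to Nes were Abcb1a (0.992), Flt1 (0.992) and Ly6c1 (0.9911), and the gene nearest to Synm was Lamb1 (0.9752). Among the filament genes themselves Nefl and Nefm were the most alike (r = 0.975), followed by Gfap and Vim (0.922), while Nefl correlated less with Nefh (0.611) and Ina (0.644). Ina and Vim ran in opposite directions (r = -0.95).

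Repeat sequencing of 4 replicates gave the technical spread of these levels. Over the 9 genes and 4 replicates, the ratio of the batch 2 to the batch 1 TPM had a median of 1.01 and ranged from 0.437 to 1.48. Among the 19 combinations with many counts in both libraries it stayed between 0.92 and 1.02, so the wide ratios were those of thinly counted genes.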

How the data were processed

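RNA bound to tagged ribosomes was sequenced from 18 replicates, 4 of them in both batches (22 libraries). The submitters' processing notes name cutadapt 3.5 and kallisto 0.46.2, and the study's methods name GENCODE mouse transcripts. The deposited files hold, for each transcript, an estimated count, a TPM value and an effective length, and the authors tested them with sleuth, which was not run here. Estimated counts and TPM were summed here over the transcripts of a gene, and the batch 1 library was used for replicates sequenced in both batches. Counts were rounded and fitted in 1 model over the 18 libraries with edgeR 4.0.16 (R 4.3.3, TMM scaling, filterByExpr with a minimum count of 10, glmQLFTest), and calls were made at a Benjamini-Hochberg adjusted p of at most 0.05. Interneurons and microglia were sequenced in batch 2 only and the main libraries of the other types in batch 1, so that batch and cell type cannot be told apart in this fit, and batch 2 values use the repeat libraries, in which 4 types have a lone library that is assumed to vary like the replicated ones. Subunit ratios and transcript shares were tested by exact permutation (Python 3.11.15). Alternatives used DESeq2 1.42.0, limma 3.58.1 with a pseudocount of 1 TPM, upper-quartile scaling, no count filter, a length offset, protein-coding transcripts alone, other batch choices, a replicate block and the removal of each replicate. On simulated data for astrocytes against the other types, over 19239 genes, 90 of 100 genes changed by 2-fold and 96 of 100 changed by 4-fold were recovered. There, 12 unchanged genes were also called. The simulation gave all genes 1 fixed dispersion and changed astrocytes alone, unlike the data, in which all types differ. The filter keeps a gene that is high in 1 type. Replicates are separate samples by their labels, and p-values measure the spread between them.

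The member genes and all lists (26 partners, 57 other filament genes and the cell type markers) were chosen with earlier results of these data known. Of each list, the 4 genes with the largest absolute log2 fold change in the comparison described were named, together with any gene that went against the rest of its sub-list. For each member gene, the 3 genes with the highest correlation were found. Promoter and transcript sequences come from RefSeq (GRCm38.p6) and GENCODE M21 (GRCm38). A few items of these lists and sequences are not reported here.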

Additional observations from a re-analysis of the deposited data

How the results depend on the processing

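Between neurons and glia 8 to 9 of the 9 genes were called in every alternative, between astrocytes and the other types 7 to 8, between layer V and other neurons 6 to 8, and over the 15 pairs 118 to 126 combinations. Leaving out each replicate gave 8 to 9, 8, 7 and 123 to 125. Over all results and alternatives, 2155 values kept their direction and call, 42 lost and 15 gained a call, 26 changed sign and 1 moved. The one that moved was the log2 range of Nefh to Nefl, 4.63 without dentate replicate 3 (4.29 to 4.63 over all removals). The astrocyte difference of Prph changed sign with limma (-0.42), a length offset (-0.21), batch 2 libraries of the repeated replicates (-0.36), a batch term (-0.15), batch 1 alone (-0.68) and batch 2 alone (-0.88), and ran from -0.21 to 0.18 without single replicates. With limma on log2(TPM + 1) Nes and Ina in layer V neurons turned to -0.11 and -0.15 and Nefl in dentate against layer V neurons to 0.13. Vim in cerebellar granule cells against layer V neurons turned to -0.058 with a length offset, Ina in layer V neurons to -0.068 in batch 1 alone, and Prph in interneurons against cerebellar granule cells to -0.019 with a batch term and -0.58 in batch 2 alone. Nefm in microglia against astrocytes turned to -0.041 without a count filter and -0.009 in batch 2 alone, and ran from -0.058 to 0.22 without single replicates. Nefh in the same pair ran from -0.033 to 0.25, and dentate granule cells against interneurons from -0.024 to 0.64 for Gfap and -0.075 to 0.44 for Vim. The cause was not tested. Limma on log2(TPM + 1) moved the median of all genes by 0.24, -0.21 and -0.16 in the 3 comparisons, dropping the filter moved it by -0.13 in the first, and batch 2 alone by -0.11 in the second.

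Same-numbered libraries of different types correlated weakly, by -0.1 to 0.109 in their deviations, yet 15 of 18 libraries correlated best with their own number. Whether samples that share a number were paired is not settled by these values. With the replicate number as a block 9, 8 and 7 genes and 125 combinations were called, as without it. Counts limit Prph most, with 5 to 18 a library in cerebellar granule cells and interneurons.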

Other observations

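Other intermediate filament genes (57 genes, chiefly keratins and lamins) were mostly too low to test. Of the 24 that passed the filter, 7 were called higher and 11 lower in neurons than in glia and 6 were not called, with a median of -0.28 beside -0.18 for all genes, of which 36.4% were called higher and 46.8% lower. Among the lamins of the nuclear envelope, Lmna (0.64) and Lmnb2 (0.77) were higher in neurons and Lmnb1 lower (-0.40). Krt80 was lower in neurons as a group by -3.48 (edgeR adjusted p = 4.8e-10), yet among neurons it was higher in layer V neurons by 7.12 (adjusted p = 6.27e-13), at 5.05 ± 0.0839 TPM. Krt12 behaved likewise among neurons, at 27.5 ± 1.48 TPM in layer V neurons (6.61, edgeR adjusted p = 6.51e-14). Krt222, a keratin-like gene chosen after its values were seen, was higher in neurons by 2.74 (edgeR adjusted p = 7.56e-18), with 65.5 ± 2.47 TPM in cerebellar granule cells and 63.4 ± 2.28 TPM in interneurons against 7.47 ± 1.10 TPM in astrocytes. Krt8 and Krt19 were lower in neurons as a group by -3.04 and -2.74 (edgeR adjusted p = 0.000306 and 0.00785), and Krt90 was not called. The Krt19 difference is one between means over the log2 levels of unlike types. Krt19 was absent from every dentate and layer V library, yet every interneuron library stood above every glial one in its TPM.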
